A study of Mus musculus with 15 samples.

Results

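The 9 Toll-like receptor genes Tlr1, Tlr2, Tlr3, Tlr4, Tlr6, Tlr7, Tlr8, Tlr9 and Tlr13, together with Cd14, were taken by symbol from a table of 17030 mouse genes, and all 10 were found. All 10 were among the 11793 genes tested, which had to reach 1 FPKM (fragments per kilobase of transcript, scaled to the size of the library) in at least 3 of 15 libraries. The table came from RNA sequencing of bone marrow cells in 5 groups of 3 libraries. CAR macrophages carried the genotype CAR expression and were CAR treated, and control-CAR macrophages likewise expressed and were treated with a control-CAR, CAR here being read as chimeric antigen receptor, a synthetic protein with which a cell recognises a selected target. Hoxb8 macrophages, BMDM (bone marrow macrophages) and progenitor cells were labelled wild type and untreated. Hoxb8 is a homeobox gene whose forced expression holds myeloid precursors in a dividing state. The labels do not say which groups carried it, which target the CAR recognised, what age or strain the mice were, or whether replicates were grown or collected separately. The p-values therefore measure only the scatter among these samples, and that scatter may be technical. It was also uneven. Between 2 libraries of a group, chi-square per degree of freedom, near 1 for counting error alone, was 1.39 to 1.97 in CAR macrophages. It was 2.88 to 14.6 in control-CAR macrophages, 4.66 to 8.10 in Hoxb8 macrophages, 6.39 to 20.4 in BMDM and 2.02 to 3.36 in progenitor cells. The test shared 1 estimate of the spread over the 5 groups.

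Toll-like receptors are membrane proteins that recognise molecules of microbes and signal through the adaptors Myd88 and Ticam1 to NF-kB and interferon regulatory factors. Those on the cell surface mainly bind microbial lipids and proteins, and those in endosomes bind nucleic acids. Cd14 is the surface protein that hands lipopolysaccharide to Tlr4 and also serves other receptors of the family, and macrophages are the cell type best known for carrying many of these receptors at once.

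Depth was 16962839 to 19221681 estimated counts per library. The scaling factors of the trimmed mean of M-values (TMM) were 1.05 in the CAR libraries, 0.826 to 0.877 in control-CAR, 0.824 to 0.829 in Hoxb8 macrophages, 0.896 to 0.960 in BMDM and 1.46 to 1.47 in progenitor cells. FPKM levels do not carry these factors and the modelled changes do, so a change in FPKM and a modelled change can differ. The 8 macrophage markers summed to 2445 to 2509 FPKM in CAR macrophages, 7176 to 7780 in control-CAR macrophages, 7449 to 8164 in Hoxb8 macrophages, 9644 to 10582 in BMDM and 187 to 205 in progenitor cells, where Mertk, a phagocytic receptor, had a count of 0.

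On the RefSeq annotation of GRCm38.p6, Tlr1 (chr5:64924680-64933600) and Tlr6 (chr5:64953092-64970942) were neighbours on the minus strand, 19491 bases apart. Tlr8 (chrX:167241123-167264329) and Tlr7 (chrX:167303380-167330574) were likewise neighbours, 39050 bases apart, and Tlr13 (chrX:106143275-106160493) was on the same chromosome. The others were Tlr2 (chr3:83836272-83841824), Tlr3 (chr8:45395665-45411075), Tlr4 (chr4:66827551-66846581) and Tlr9 (chr9:106222598-106226876). RefSeq promoter sequences on GRCm38.p6, 250 bases before to 50 after a start that the sequence table gives, were matched for 7 of the 10 genes in 9 entries. These starts need not be the outer end of a gene: that of Tlr8 is, and those shown for Tlr2, Tlr3 and Tlr6 lie inside the spans above. The 4 shown are those of Tlr3 and Tlr8, with the largest rise and the largest fall in CAR against control-CAR macrophages, Tlr6, with the largest fall among the surface receptors, and Tlr2, the most abundant receptor. They lie at chr8:45410331-45410630, chrX:167264280-167264579, chr5:64959117-64959416 and chr3:83841559-83841858, and are written along the minus strand, on which all 4 genes lie. Capitals mark matches, on either strand, to GAGGAA (the core bound by the myeloid factor PU.1), to the NF-kB motif searched (GGG, any 5 bases, CC) or to the interferon-stimulated element (GAAA, any 2 bases, GAAA).
Tlr3: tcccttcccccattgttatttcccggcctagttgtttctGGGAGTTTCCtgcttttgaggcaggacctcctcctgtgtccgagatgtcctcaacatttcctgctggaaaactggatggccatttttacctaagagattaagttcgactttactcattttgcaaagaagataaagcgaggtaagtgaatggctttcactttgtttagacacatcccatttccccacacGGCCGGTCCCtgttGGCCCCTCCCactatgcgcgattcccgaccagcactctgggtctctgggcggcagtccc
Tlr8: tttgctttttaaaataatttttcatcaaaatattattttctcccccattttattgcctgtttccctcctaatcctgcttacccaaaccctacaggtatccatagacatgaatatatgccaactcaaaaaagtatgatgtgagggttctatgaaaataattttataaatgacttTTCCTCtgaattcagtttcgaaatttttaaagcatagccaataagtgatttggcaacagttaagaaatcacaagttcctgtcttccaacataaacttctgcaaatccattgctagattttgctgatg
Tlr6: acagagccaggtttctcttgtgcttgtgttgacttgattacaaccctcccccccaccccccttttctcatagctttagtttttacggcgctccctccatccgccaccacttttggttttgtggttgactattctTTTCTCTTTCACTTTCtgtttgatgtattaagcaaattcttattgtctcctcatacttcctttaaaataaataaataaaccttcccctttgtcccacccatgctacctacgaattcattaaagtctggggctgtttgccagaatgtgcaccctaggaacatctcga
Tlr2: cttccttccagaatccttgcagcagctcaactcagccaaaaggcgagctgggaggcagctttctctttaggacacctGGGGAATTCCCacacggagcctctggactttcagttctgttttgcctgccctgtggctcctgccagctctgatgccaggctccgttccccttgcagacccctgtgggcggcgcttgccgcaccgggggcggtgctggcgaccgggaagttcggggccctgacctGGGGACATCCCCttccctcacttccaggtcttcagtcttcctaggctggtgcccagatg

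The Tlr3 window held 3 matches to the NF-kB motif, the Tlr8 window 1 to GAGGAA and the Tlr6 window shown 2 matches to the interferon-stimulated element that share 4 bases. The table gives a second Tlr6 start, and its window, at chr5:64959999-64960298, held 1 match to the NF-kB motif and none to the interferon-stimulated element; the one shown was chosen after the matches were seen. The Tlr2 window held 7 overlapping matches to the NF-kB motif in 2 stretches, which begin 173 and 9 bases before the start. In all 9 entries, GAGGAA was present in 4, the NF-kB motif in 3, the interferon-stimulated element in 1 and TGANTCA (AP-1) in 1. Among 32851 mouse promoters of the same length, the shares holding them were 28.3%, 50.8%, 3.44% and 7.81%. A match is a description of letters, and binding was not measured.

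The first comparison is the one the series is built on, CAR against control-CAR macrophages. Of the 10 genes, 3 were higher in CAR macrophages (Tlr3, Tlr7 and Tlr13, all endosomal receptors), and Tlr2 did not pass the test. The other 6 were lower (Tlr1, Tlr4, Tlr6, Tlr8, Tlr9 and Cd14), of which Tlr8 and Tlr9 are endosomal too. Tlr3 and Tlr8 reached 1 FPKM only in groups where they were high, and so were tested only through these. Genes were called at an adjusted p under 0.05 in edgeR's quasi-likelihood test, with p-values adjusted over all tested genes by Benjamini and Hochberg's method. Of all genes tested, 78.7% passed it, 41.9% higher and 36.8% lower, so a pass by 9 of 10 is near what other genes did. The FPKM of the groups did not overlap for any of the 10 genes, as for 82.1% of all genes tested. The median log2 change was -0.84 over the 10 genes and 0.064 over all genes. With TPM in place of TMM-scaled counts the split was 4 higher and 5 lower, and in bulk RNA a change in the number of cells of a type cannot be told apart from a change in RNA per cell.

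Tlr2 pairs with Tlr1 or Tlr6 to bind bacterial lipoproteins and was the most abundant of the receptors in every macrophage library. It stood at 161.93, 157.97 and 160.58 FPKM in CAR macrophages, 117.34, 124.66 and 130.82 in control-CAR, 129.86, 110.1 and 112.34 in Hoxb8 macrophages, 301.58, 256.3 and 241.31 in BMDM and 2.79, 2.03 and 2.6 in progenitor cells. BMDM were highest and did not overlap any other group, and the control-CAR and Hoxb8 libraries overlapped each other. The modelled log2 change in CAR against control-CAR macrophages was 0.06 (95% interval -0.15 to 0.27, adjusted p = 0.570, edgeR). The call turned with the scaling, since Tlr2 was called higher in CAR macrophages by 0.37 with library totals, 0.36 on log2(FPKM + 1) and 0.60 on log2(TPM + 1). Those settings moved the median of all genes by 0.31, 0.23 and 0.45. Without control-CAR replicate 1 the modelled change was -0.0037, and it was not called.

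Tlr1, the partner of Tlr2 for triacylated lipopeptides, had 18.37, 18.23 and 19.4 FPKM in CAR macrophages, 32.04, 26.48 and 29.11 in control-CAR, 32.42, 28.33 and 27 in Hoxb8 macrophages, 23.41, 23.24 and 24.7 in BMDM and 0.02, 0.06 and 0.02 in progenitor cells. The CAR libraries were the lowest of the macrophages, and control-CAR and Hoxb8 macrophages shared a range. Tlr1 fell in CAR against control-CAR macrophages, with a log2 change of -0.96 (SE 0.070, adjusted p = 4.8e-10, edgeR).

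Tlr6, the partner of Tlr2 for diacylated lipopeptides, split the macrophages into a high and a low pair of groups. It stood at 16.56, 15.09 and 16.83 FPKM in CAR macrophages, 43.94, 38.34 and 41.8 in control-CAR, 46.54, 42 and 44.63 in Hoxb8 macrophages, 18.76, 18.69 and 16.24 in BMDM and 2.87, 2.87 and 2.49 in progenitor cells. The 6 control-CAR and Hoxb8 libraries all lay above the 6 CAR and BMDM libraries. The log2 change in CAR against control-CAR macrophages was -1.71 (SE 0.068, adjusted p = 7.0e-14, edgeR), the largest fall among the surface receptors.

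The counts of Tlr1 and Tlr6 are uncertain to a degree, because the genes share sequence. In the GENCODE vM21 transcripts, 259 windows of 100 bases were common to both, 7.89% of those of Tlr1 and 7.09% of those of Tlr6, and both had decimals in their estimated counts in 14 of 15 libraries. The ratio of Tlr6 to Tlr1 FPKM was 0.866 ± 0.037 in CAR macrophages, 1.42 ± 0.041 in control-CAR, 1.52 ± 0.11 in Hoxb8 macrophages and 0.754 ± 0.084 in BMDM (SD, n = 3 each). Tlr1 was thus the more abundant partner in CAR macrophages and BMDM, and Tlr6 in control-CAR and Hoxb8 macrophages, in each of the 12 libraries.

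Tlr4, the lipopolysaccharide receptor, varied least between the groups. It had 21.25, 21.58 and 21.78 FPKM in CAR macrophages, 34.41, 24.13 and 27.66 in control-CAR, 23.9, 23.51 and 26.83 in Hoxb8 macrophages, 19.79, 21.24 and 24.98 in BMDM and 7.96, 6.43 and 6.62 in progenitor cells. Control-CAR replicate 1 was the highest library, and the ranges of control-CAR, Hoxb8 macrophages and BMDM overlapped. In CAR against control-CAR macrophages the log2 change of Tlr4 was -0.72 (SE 0.096, adjusted p = 1.7e-06, edgeR). It was -0.60 without control-CAR replicate 1, and on log2(TPM + 1) it was -0.16 and not called (adjusted p = 0.20, limma).

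Cd14, the lipopolysaccharide co-receptor (chr18:36725064-36726815, minus strand), was the most abundant of the 10 genes in every library. It stood at 3137.81, 3139 and 3229.88 FPKM in CAR macrophages, 4844.91, 5053.56 and 5072.76 in control-CAR, 4955.33, 4813.67 and 5202.57 in Hoxb8 macrophages, 3163.65, 3008.45 and 2891.45 in BMDM and 25.87, 22.15 and 21.17 in progenitor cells. CAR macrophages and BMDM shared the lower macrophage level, and control-CAR and Hoxb8 macrophages the higher one. Against control-CAR macrophages, Cd14 in CAR macrophages had a log2 change of -0.96 (SE 0.072, adjusted p = 7.0e-10, edgeR). Per Tlr4, the Cd14 FPKM was 147 ± 1.5-fold in CAR macrophages, 178 ± 35 in control-CAR, 202 ± 7.1 in Hoxb8 macrophages, 139 ± 22 in BMDM and 3.30 ± 0.13 in progenitor cells (SD, n = 3 each).

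**Figure D1:**
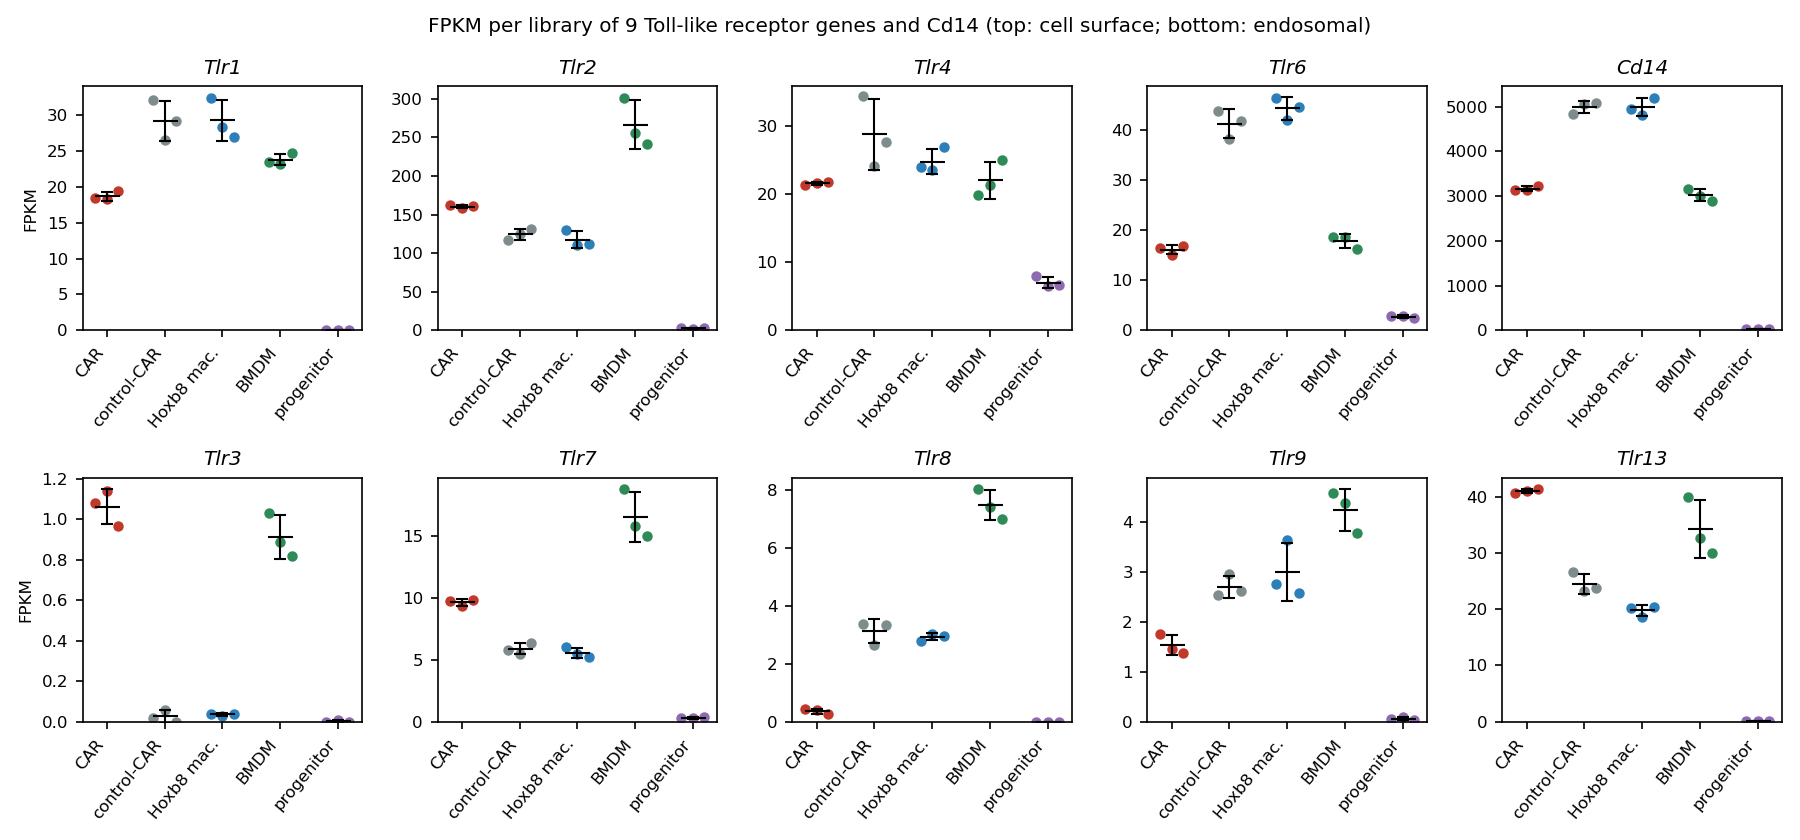
FPKM of each gene (vertical axis, a separate linear scale from 0 per panel) in the 15 libraries, with the surface receptors and Cd14 on top and the endosomal receptors below; points are libraries, bars the mean and SD of 3 libraries. The FPKM of CAR macrophages and BMDM overlap for Tlr3, Tlr4, Tlr6 and Cd14, of which Tlr6 was called lower in CAR macrophages (log2 change -0.38, edgeR). For Tlr8 the CAR libraries (0.26 to 0.43 FPKM) lie below all other macrophages.

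Tlr3, the receptor for double-stranded RNA, was a gene of low level that was present in 2 macrophage groups and nearly absent from the others. It had 1.08, 1.14 and 0.97 FPKM in CAR macrophages, 0.02, 0.06 and 0 in control-CAR, 0.04, 0.03 and 0.04 in Hoxb8 macrophages, 1.03, 0.89 and 0.82 in BMDM and 0, 0.01 and 0 in progenitor cells. In estimated counts these were 78, 84 and 74 in CAR macrophages against 1, 4 and 0 in control-CAR macrophages. The ratio of the summed counts, scaled by TMM, was 36.9 in CAR over control-CAR macrophages (exact 95% interval 15.6 to 115, counting error only). The modelled log2 change was 5.12 (SE 0.38, adjusted p = 6.3e-10, edgeR) and 6.68 without control-CAR replicate 2. Tlr3 reached 1 FPKM in exactly 3 libraries, 2 of CAR macrophages and 1 of BMDM, so it was tested only through the groups where it was high. Of its 5207 exon bases, 381 (7.32%) overlapped the antisense gene Gm45542. Reads within that overlap cannot be told apart, because the strand setting is not given in the sources used here. The estimated counts of Tlr3 had decimals in 0 of 15 libraries.

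Tlr7, a receptor for single-stranded RNA, was highest in BMDM and second in CAR macrophages. It had 9.74, 9.35 and 9.87 FPKM in CAR macrophages, 5.83, 5.49 and 6.36 in control-CAR, 6.03, 5.46 and 5.26 in Hoxb8 macrophages, 18.8, 15.83 and 15 in BMDM and 0.29, 0.29 and 0.4 in progenitor cells. The CAR libraries lay above all 6 control-CAR and Hoxb8 libraries and below all of BMDM. Tlr7 rose in CAR against control-CAR macrophages by a log2 change of 0.41 (SE 0.095, adjusted p = 8.1e-04, edgeR). Its estimated counts had decimals in 15 of 15 libraries, although no window of 100 bases was shared with another gene.

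Tlr8, in humans also a receptor for single-stranded RNA, moved the other way from its neighbour Tlr7 in CAR against control-CAR macrophages. It had 0.43, 0.39 and 0.26 FPKM in CAR macrophages, 3.38, 2.66 and 3.34 in control-CAR, 2.79, 3.03 and 2.96 in Hoxb8 macrophages, 8.02, 7.4 and 7 in BMDM and 0 in all 3 progenitor libraries. The CAR libraries were below those of every other macrophage group and rested on 36, 34 and 23 counts. The log2 change in CAR against control-CAR macrophages was -3.38 (SE 0.16, adjusted p = 5.6e-12, edgeR), the largest fall among the 10 genes. Tlr8 reached 1 FPKM in no CAR library, so it was tested only through the macrophage groups where it was high, and a fall in CAR macrophages was thereby favoured.

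Tlr9, the receptor for unmethylated CpG DNA, had 1.76, 1.45 and 1.38 FPKM in CAR macrophages, 2.53, 2.95 and 2.62 in control-CAR, 2.76, 3.64 and 2.57 in Hoxb8 macrophages, 4.57, 4.36 and 3.77 in BMDM and 0.05, 0.09 and 0.04 in progenitor cells. CAR macrophages were the lowest and BMDM the highest of the macrophages, with no overlap between these and the other two. The log2 change in CAR against control-CAR macrophages was -1.13 (SE 0.16, adjusted p = 3.2e-06, edgeR).

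Tlr13, which in mice senses bacterial ribosomal RNA, was the most abundant endosomal receptor in all 12 macrophage libraries. It had 40.66, 41.02 and 41.31 FPKM in CAR macrophages, 26.53, 23.19 and 23.77 in control-CAR, 20.24, 18.66 and 20.44 in Hoxb8 macrophages, 39.94, 32.7 and 30 in BMDM and 0.08 in each progenitor library. The CAR libraries were above all others, with BMDM replicate 1 next. Tlr13 rose in CAR against control-CAR macrophages by a log2 change of 0.44 (SE 0.087, adjusted p = 1.6e-04, edgeR).

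Summed over the 9 receptors, FPKM was 270 ± 3.4 in CAR macrophages, 260 ± 10.3 in control-CAR, 247 ± 15.5 in Hoxb8 macrophages, 393 ± 37.7 in BMDM and 12.7 ± 1.2 in progenitor cells (SD, n = 3 each). The FPKM sums of CAR and control-CAR macrophages were close, the lowest CAR library at 266.22 and the highest control-CAR library at 266.02. These sums do not carry the TMM factors, which were higher in CAR than in control-CAR libraries, so sums of TMM-scaled counts may compare differently. The make-up was unlike, since the 5 endosomal receptors held 19.8% ± 0.17 of the sum in CAR macrophages and 13.9% ± 0.41 in control-CAR macrophages. Their share was 12.7% ± 0.58 in Hoxb8 macrophages, 16.1% ± 0.52 in BMDM and 3.73% ± 0.66 in progenitor cells, and it did not overlap between CAR macrophages and any other group. Tlr2 alone held 59.3% ± 0.32 in CAR macrophages, 47.9% ± 3.3 in control-CAR, 47.5% ± 1.4 in Hoxb8 macrophages and 67.6% ± 1.5 in BMDM. In progenitor cells Tlr4 led instead, with 55.0% ± 1.4, and Tlr2 held 19.4% ± 2.1. Within the endosomal sum, Tlr13 held 76.5% ± 0.63 in CAR macrophages and 67.6% ± 1.7 in control-CAR macrophages. The endosomal receptors did not all rise in CAR against control-CAR macrophages, since Tlr8 and Tlr9 fell. These shares are within a library, so no scaling factor enters them, and they were not tested.

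**Figure D2:**
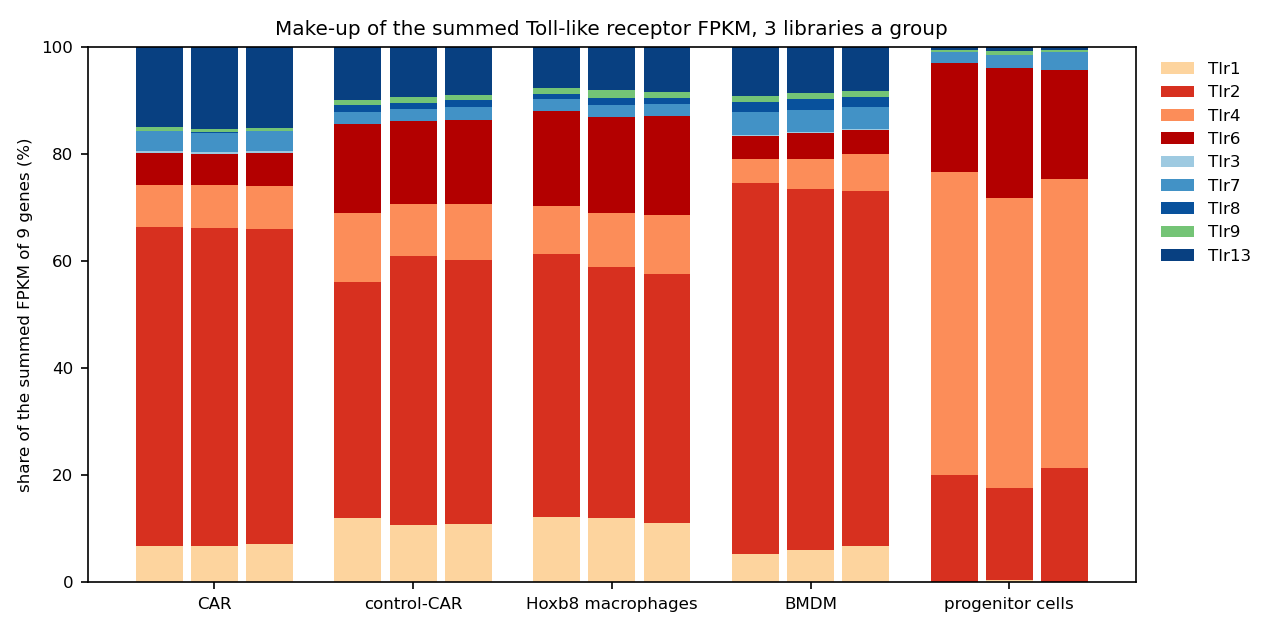
Share of the summed FPKM of 9 Toll-like receptor genes held by each gene (percent, vertical axis from 0 to 100), 1 bar per library; Tlr1, Tlr2, Tlr4 and Tlr6, in warm colours, are the surface receptors and the others the endosomal ones. The endosomal share is 19.8% on average in CAR macrophages and 13.9% in control-CAR macrophages, and Tlr4 makes up 55.0% in progenitor cells.

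The second comparison sets control-CAR macrophages against Hoxb8 macrophages, which were labelled wild type and untreated. Since the labels do not say which groups carried Hoxb8, these groups may differ in more than the construct. None of the 10 genes passed edgeR's quasi-likelihood test, against 2.62% of all genes tested. At an unadjusted p under 0.05 there were 2, Tlr6 with a log2 change of -0.17 (95% interval -0.31 to -0.024, adjusted p = 0.17) and Tlr13 with 0.27 (0.068 to 0.47, adjusted p = 0.12). DESeq2 and the limma fits on FPKM and TPM also called 0, and edgeR on library totals called Tlr13. Tlr13 was the only one whose FPKM did not overlap between these groups, as for 21.9% of all genes. The intervals of the other 8 covered 0, the widest being that of Tlr3, from -2.42 to 1.07.

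Hoxb8 macrophages against BMDM compares macrophages named for Hoxb8 with primary ones. Here 4 of the 10 genes were higher in Hoxb8 macrophages, all of the surface, and 6 were lower, Tlr2 and the 5 endosomal receptors, in the edgeR test. Of all genes tested, 70.3% were called, 32% higher and 38.3% lower. FPKM did not overlap between the groups for 9 of the 10, Tlr4 being the exception, as for 70.7% of all genes. The higher ones were Tlr6 with a log2 change of 1.5 (SE 0.067), Cd14 with 0.89 (0.072), Tlr1 with 0.45 (0.069) and Tlr4 with 0.34 (0.095). The lower ones were Tlr3 with -4.42 (0.35), Tlr7 with -1.39 (0.093), Tlr8 with -1.17 (0.11), Tlr2 with -1.02 (0.095), Tlr13 with -0.63 (0.088) and Tlr9 with -0.34 (0.14). Tlr3 reached 1 FPKM in no Hoxb8 macrophage library. It was tested only through CAR macrophages and BMDM, where it was high, so a fall was favoured. On log2(TPM + 1) the split was 2 higher and 6 lower, and neither Tlr1, at 0.12, nor Tlr4, at -0.0019, was called. Tlr9 (adjusted p = 0.038) lost its call under DESeq2 (0.058), without the low-value filter (0.055), with only these 2 groups in the fit (0.083), and without either of BMDM replicates 1 and 2 (0.13 and 0.087) or of Hoxb8 macrophage replicates 1 and 3 (0.12 and 0.17). The Tlr4 call was lost with library totals (0.17, adjusted p = 0.18) and on log2(FPKM + 1) (0.17, adjusted p = 0.20).

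CAR macrophages against BMDM, which shares its groups with the comparisons above, had 0 genes higher, 6 lower and 4 not called in the edgeR test, with 76.9% of all genes called, 39.2% higher and 37.8% lower. FPKM did not overlap for 6 of the 10, against 80.1% of all genes. Tlr8 was lowest in relation to BMDM, with a log2 change of -4.51 (SE 0.15), again tested only through the groups where it was high. Tlr9 followed with -1.65 (0.15), Tlr7 with -0.95 (0.089), Tlr2 with -0.92 (0.095), Tlr1 with -0.55 (0.071) and Tlr6 with -0.38 (0.070), of which Tlr6 overlapped in FPKM and was not called on FPKM or TPM. The uncalled changes were 0.03 for Tlr3 (95% interval -0.38 to 0.44), 0.08 for Tlr13 (-0.12 to 0.27), -0.12 for Cd14 (-0.28 to 0.041) and -0.21 for Tlr4 (-0.42 to 0.0064, adjusted p = 0.058). At an unadjusted p under 0.05, 0 were higher and 7 lower. Tlr4 was among these 7 (unadjusted p = 0.045, edgeR). Its interval still covered 0, because intervals were set at 10 degrees of freedom and the test used more. Tlr13 was called higher with library totals (0.26), on log2(FPKM + 1) (0.26) and log2(TPM + 1) (0.34) and without BMDM replicate 1 (0.23), and Tlr3 on log2(TPM + 1) (0.18). Tlr4 was called lower by DESeq2 (-0.23) and in 5 other settings, among them without BMDM replicate 1 (-0.25), and Cd14 by DESeq2 (-0.14) and without BMDM replicate 3 (-0.17). With library totals the split was 1 higher and 6 lower, and with TPM 2 higher and 5 lower.

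**Figure D3:**
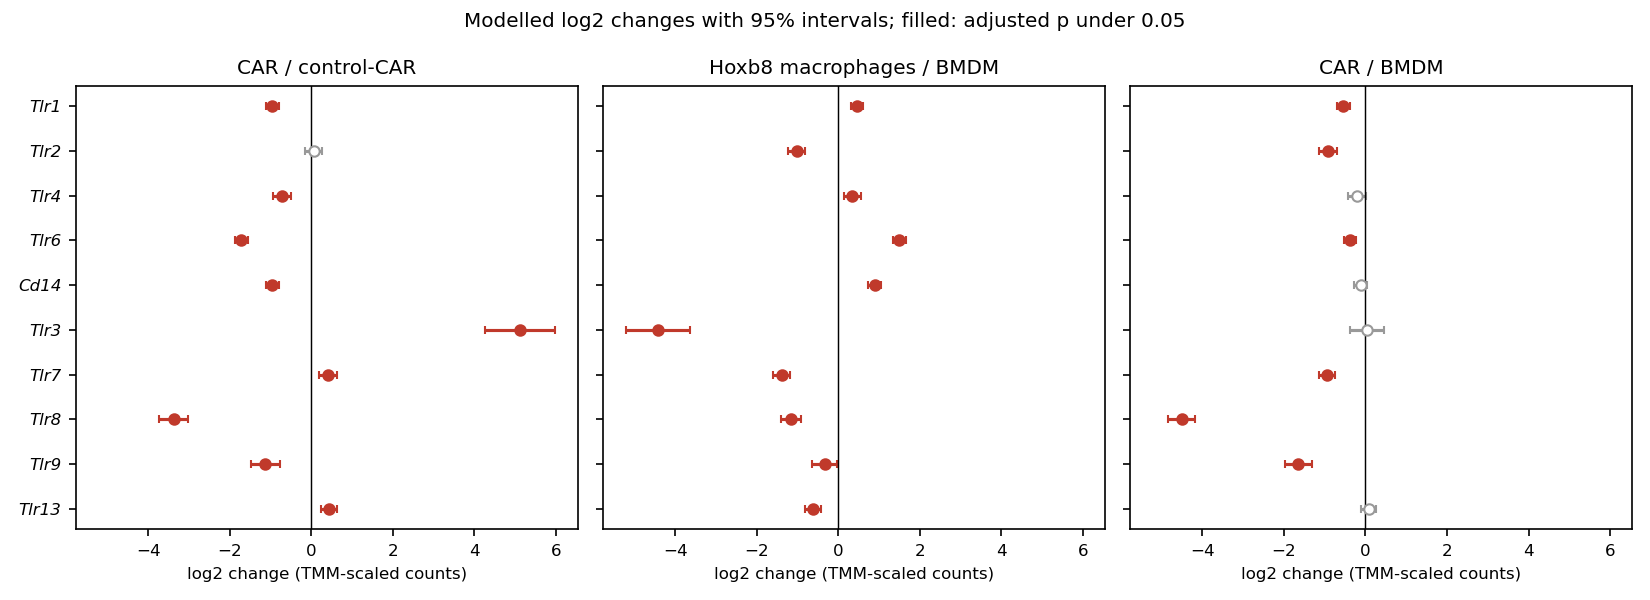
Modelled log2 changes of the 10 genes with 95% intervals (horizontal axis, TMM-scaled counts) in CAR against control-CAR macrophages, Hoxb8 macrophages against BMDM and CAR macrophages against BMDM; filled points passed edgeR's test at an adjusted p under 0.05. The 3 panels share groups, and in the third all called genes, 6 of 10, lie left of 0.

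Against progenitor cells, all 10 genes were higher in Hoxb8 macrophages, in BMDM and in CAR macrophages, where 44.7%, 46.6% and 45.9% of all genes tested were called higher. The 3 comparisons share the progenitor libraries. Tlr1, Tlr3, Tlr7, Tlr8, Tlr9 and Tlr13 did not reach 1 FPKM in any progenitor library, so these 6 were tested only through the macrophages where they were high, and the count of 10 supports nothing further. Tlr4 changed least, with log2 changes of 2.65 (SE 0.10) in Hoxb8 macrophages, 2.31 (0.10) in BMDM and 2.11 (0.10) in CAR macrophages. Among the 4 genes that reached 1 FPKM in every progenitor library (Tlr2, Tlr4, Tlr6 and Cd14), Tlr6 was next, with 4.73 (0.083), 3.23 (0.085) and 2.85 (0.086). Cd14, at 23.1 ± 2.5 FPKM in progenitor cells (SD, n = 3), was higher by 8.59 (0.10), 7.71 (0.098) and 7.59 (0.098).

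For the genes with few progenitor counts the ratio of the summed counts is given in place of the modelled change. Tlr1, with 5 counts in the 3 progenitor libraries, was 1435-fold (614 to 4421) higher in Hoxb8 macrophages, 1048-fold (448 to 3228) in BMDM and 718-fold (307 to 2212) in CAR macrophages. Tlr3, with 1 progenitor count, was 14.1-fold (1.90 to 627) higher in Hoxb8 macrophages, 313-fold (55.6 to 12426) in BMDM and 320-fold (56.9 to 12702) in CAR macrophages. That count was in progenitor replicate 2, and the modelled log2 change of Tlr3 in Hoxb8 macrophages was 3.26 with it and 4.76 without that library. Tlr9, with 10 counts, was 89.4-fold (48.2 to 188) higher in Hoxb8 macrophages, 112-fold (60.8 to 235) in BMDM and 35.8-fold (19.2 to 75.6) in CAR macrophages. Tlr8 had a count of 0 and, with a floor of 3 counts per library, was at least 142-fold higher in Hoxb8 macrophages, at least 320-fold in BMDM and at least 14.1-fold in CAR macrophages. The median log2 change of the 10 genes in CAR macrophages against progenitor cells was 7.04 as fitted and 5.80 with Tlr8 at its bound. The call of Tlr3 in Hoxb8 macrophages was lost on log2(FPKM + 1), where its change was 0.047 (adjusted p = 0.38, limma), and on log2(TPM + 1), where it was 0.061 (0.38).

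In the order of mean FPKM over the 5 groups, progenitor cells were last for all 10 genes, and control-CAR and Hoxb8 macrophages were neighbours that did not pass the test (adjusted p from 0.12 for Tlr13 to 0.94 for Tlr7, edgeR), although Tlr13 did with library totals. BMDM led for Tlr2, Tlr7, Tlr8 and Tlr9, CAR macrophages for Tlr3 and Tlr13, Hoxb8 macrophages for Tlr1, Tlr6 and Cd14, and control-CAR macrophages for Tlr4. CAR macrophages and BMDM were neighbours for Tlr3, Tlr4, Tlr13 and Cd14 without passing the test. For Tlr3 the last neighbours, control-CAR macrophages and progenitor cells, were called apart (adjusted p = 0.037, edgeR, where 84.1% of all genes were called) on 5 counts against 1, a ratio of 8.68 whose counting interval reached 0.971 to 411.

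Of the other receptors of the mouse family, Tlr12 and Tlr5 were in the table. Tlr12 was 0.113 ± 0.032 FPKM in CAR macrophages, 0 in control-CAR, 0.0067 ± 0.012 in Hoxb8 macrophages, 0.133 ± 0.075 in BMDM and 2.04 ± 0.30 in progenitor cells (SD, n = 3 each). It reached 1 FPKM in progenitor cells only and so was tested only through them, which makes its lower level elsewhere a description. Tlr5, the flagellin receptor, was too low to be tested, with 0.497 ± 0.10 FPKM in BMDM, 0.377 ± 0.040 in progenitor cells and at most 0.04 in any other library.

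Helper proteins of the receptors were followed in a list of 12 co-receptors, chaperones and proteases. In CAR against control-CAR macrophages 5 were higher, 4 lower and 3 not called, beside 78.7% of all genes called (41.9% higher, 36.8% lower), and the median log2 change was 0.097, beside 0.064 for all genes. The same shares of all genes stand beside the next 3 lists. Ctsl and Ctss, cathepsins that cleave endosomal receptors into their active form, were 620 ± 8.8 FPKM in CAR macrophages and 63.8 ± 3.0 FPKM in control-CAR macrophages (SD, n = 3 each) for Ctsl (log2 change 2.98, SE 0.084) and 439 ± 17.7 and 234 ± 9.6 for Ctss (0.61, SE 0.067). Unc93b1, which carries the endosomal receptors out of the endoplasmic reticulum, was lower by contrast (-0.67, SE 0.078), a call that TPM did not give (-0.11). Lbp, the plasma protein that brings lipopolysaccharide to Cd14, was 0.347 ± 0.098 FPKM in CAR macrophages, against 3.82 ± 0.70 FPKM in control-CAR macrophages (-3.76, SE 0.27). With library totals the split of this list was 7 higher and 2 lower, and with TPM 7 and 1.

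Of 20 adaptors and kinases 19 were tested, since Sarm1 was too low, and 6 were higher and 9 lower in CAR against control-CAR macrophages. The direction of this list rested on the scaling, with 11 higher and 6 lower for library totals and for FPKM, and 13 and 4 for TPM. Ikbke, a kinase of the interferon branch, had a log2 change of -1.89 (SE 0.075), Peli1, a ubiquitin ligase of the Irak kinases, -1.21 (0.099), and Ticam1, the adaptor of Tlr3, -1.20 (0.069). Irf7, the interferon regulatory factor downstream of Tlr7 and Tlr9, had 1.20 (0.083), and these 4 kept their direction and call in every setting run. Myd88, the adaptor of all the receptors here except Tlr3, was 49.3 ± 1.3 FPKM in CAR macrophages, against 29.3 ± 0.92 FPKM in control-CAR macrophages (log2 change 0.45, SE 0.079).

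Of 9 inhibitors, 4 were higher and 4 lower. Il1rl1, a receptor of the same domain family that can dampen Toll-like receptor signals, was 78.4 ± 0.80 FPKM in CAR macrophages, against 3.37 ± 0.68 FPKM in control-CAR macrophages (log2 change 4.21, SE 0.13), and is also a marker of mast cells. Sigirr had 1.32 (SE 0.16), Trafd1 1.3 (0.065) and Irak3, which blocks signalling by the other Irak kinases, -1.15 (0.060). Library totals gave 5 higher and 3 lower, and TPM 6 and 3.

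Of 10 genes that the receptors switch on, 9 were tested, and 1 was higher and 7 lower in CAR against control-CAR macrophages. Il12b, a subunit of interleukin cytokines that drive T cells, was 12.3 ± 0.72 FPKM in CAR macrophages, against 70.4 ± 14.1 FPKM in control-CAR macrophages (log2 change -2.81, SE 0.12). Ptgs2, the inducible cyclooxygenase, had -1.45 (0.071), and Il1b, an inflammatory cytokine, -1.42 (0.065), with 2924 ± 102 FPKM in CAR macrophages, against 6335 ± 310 FPKM in control-CAR macrophages. Ifit1, an interferon-induced gene, was the one that was higher, at 23.0 ± 0.36 FPKM in CAR macrophages, against 3.60 ± 0.20 FPKM in control-CAR macrophages (2.36, SE 0.088), and Tnf was not called (0.14, SE 0.13, adjusted p = 0.34, edgeR). The median log2 change of the tested genes was -1.23, beside 0.064 for all genes. Library totals gave 2 higher and 7 lower, and TPM 2 and 6.

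**Figure D4:**
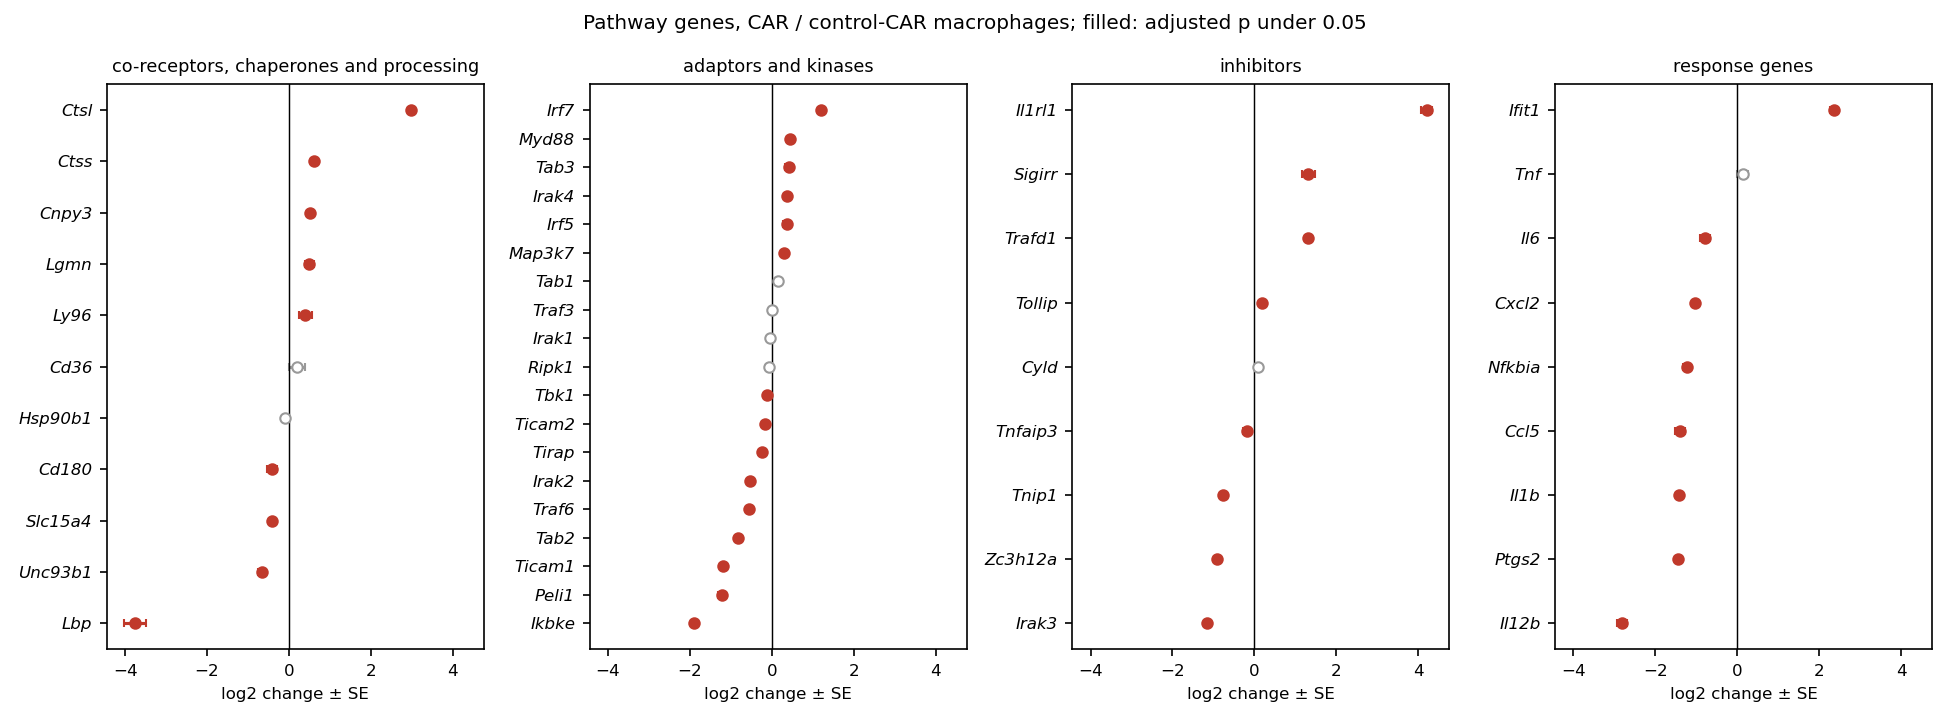
Log2 change with SE (horizontal axis) of the tested genes of 4 lists in CAR against control-CAR macrophages, sorted within each list; filled points passed edgeR's test at an adjusted p under 0.05. Il1rl1 at 4.21 and Ctsl at 2.98 are the farthest to the right, Lbp at -3.76 and Il12b at -2.81 the farthest to the left. Ly86, with 0 counts in both groups, is not drawn.

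In Hoxb8 macrophages against BMDM the same lists gave 4 higher and 7 lower helper proteins, 9 and 7 adaptors and kinases, 1 and 5 inhibitors, and 7 and 2 response genes, where 32% of all genes were higher and 38.3% lower. Ctsl had a log2 change of -4.07 (SE 0.088) and Lgmn, another endosomal protease, -4.04 (0.098), while Ly86, the partner of Cd180, had a count of 0 in all groups but BMDM (7.78 ± 1.1 FPKM, SD, n = 3). Irak4, the kinase next to Myd88, had -1.57 (0.074), Ticam2, the bridge from Tlr4 to Ticam1, 1.43 (0.070) and Irf5 -1.21 (0.079). Among the response genes Ccl5 had 3.19 (0.14), with 18900 ± 1643 FPKM in Hoxb8 macrophages and 2303 ± 499 in BMDM, and Ptgs2 had 2.01 (0.072). With TPM the adaptors and kinases split into 3 higher and 10 lower, and the inhibitors into 0 and 8. The response genes that were lower numbered 1 in place of 2 under DESeq2 and without BMDM replicate 2 or Hoxb8 macrophage replicate 2 or 3.

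Markers of other cells moved with the groups. In CAR against control-CAR macrophages, where 41.9% of all genes were higher and 36.8% lower, 7 of 7 mast cell and basophil markers were higher, with a summed 2970 to 3186 FPKM in CAR macrophages, against 49.1 to 69.2 FPKM in control-CAR macrophages, and none was at 0 in either group. Of 8 macrophage markers 1 was higher and 7 lower, of 8 neutrophil markers 1 and 7, with sums of 372 to 414 FPKM in CAR macrophages, against 1779 to 2189 in control-CAR macrophages. The 6 fibroblast markers summed to 45.8 to 47.1 FPKM in CAR macrophages, against 0.85 to 1.26 FPKM in control-CAR macrophages, in which Sparc was at 0, and the 8 progenitor markers to 166 to 181 FPKM in CAR macrophages, against 13.5 to 15.8 FPKM in control-CAR macrophages. Of the 4 fibroblast markers tested 4 were higher, and of the 8 progenitor markers 5 were higher and 3 not called. The dendritic cell markers, 7 of 8 in the table, summed to 34.9 to 37.1 in CAR macrophages, against 15.2 to 27.9 in control-CAR macrophages, with Cd209a at 0 in both. Only 3 of them were tested, of which 1 was higher and 2 were not called, with a median log2 change of -0.44. The dendritic cell sum therefore does not speak for the whole list. The part of these markers in the receptor values was not tested.

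Neutrophil markers summed to 1287 to 1546 FPKM in Hoxb8 macrophages, against 6138 to 12473 FPKM in BMDM. Fibroblast markers summed to 0.51 to 1.21 FPKM in Hoxb8 macrophages, against 14.96 to 17.25 FPKM in BMDM, progenitor markers to 12.7 to 15.3 FPKM against 153 to 274 FPKM, and dendritic cell markers to 23.6 to 28.3 FPKM against 54.9 to 69.8 FPKM. Mast cell and basophil markers summed to 2970 to 3186 FPKM in CAR macrophages and 35.7 to 55.6 FPKM in Hoxb8 macrophages, against 154 to 186 FPKM in BMDM. In CAR macrophages against BMDM 7 of 7 were higher, where 39.2% of all genes tested were higher and 37.8% lower. T and NK cell markers summed to at most 1.12 FPKM in the CAR, control-CAR and Hoxb8 macrophage libraries, against 2.41 to 3.29 FPKM in BMDM. Progenitor cells held 2834 to 2890 FPKM of the progenitor markers and 1347 to 1457 of the mast cell and basophil markers, with Fcer1a, Cma1 and Tpsb2 at 0, and 6 of 8 neutrophil markers were at 0 there. What part these markers had in the differences from BMDM and from progenitor cells was not tested.

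As a description, the genes with the most similar pattern were ranked by Pearson's r of log2(FPKM + 1) over the 15 libraries, points that share 5 groups and in which progenitor cells lie apart. Tlr1 was closest to Bcl2a1b, Bcl2a1a and Il1b (r from 0.998 to 0.999), and Cd14 to Tarm1, Slc31a2 and Acod1 (0.999 to 1.0). Tlr13 was closest to Fpr1, Slfn2 and Ralgds (0.999), Tlr2 to Ctss, Syk and Abca1 (0.998), and Tlr7 to Sh3pxd2b, Irf5 and Ets2 (0.997 to 0.998). Tlr6 was closest to Dnmt3l, Atp6v1a and P4ha1 (0.997 to 0.998) and Tlr4 to Cav2, Dram2 and Golph3l (0.988 to 0.993). Tlr8 was closest to Naaa, Prom1 and Trem1 (0.990 to 0.993) and Tlr9 to Itpr2, Arhgap31 and Lrrc25 (0.990 to 0.991). Tlr3 was closest to Pxdc1, Fscn1 and Galnt12 (0.996 to 0.998), and Fscn1 stood at 39.8 FPKM in CAR macrophages, 0.017 in control-CAR, 0.04 in Hoxb8 macrophages, 27.1 in BMDM and 0 in progenitor cells. Between the 10 genes themselves, r ran from -0.0091 for Tlr3 and Tlr6 to 0.997 for Tlr1 and Cd14.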

How the data were processed

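The authors deposited 1 table. Per the file headers it holds, for each library, estimated counts without normalisation and the authors' FPKM and TPM values. The submitters' processing notes name HISAT2, Bowtie2, RSEM 1.3.1, DESeq2 1.4.5 and GRCm38.p6; the sources used here give neither their order nor the strand setting. Per the labels' protocols, RNA was selected with oligo(dT) and libraries were made with a BGI kit.

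Here the counts were rounded and fitted with edgeR 4.0.16 (R 4.3.3), TMM, all 15 libraries in 1 model with 10 residual degrees of freedom, two-sided, with Benjamini-Hochberg adjustment over 11793 genes with at least 1 FPKM in at least 3 libraries (5237 were left out). Levels are FPKM, mean ± SD. Alternatives used limma 3.58.1 and DESeq2 1.42.0. Intervals and floors (3 counts) cover counting error only, or the modelled SE. Modelled intervals used t at 10 degrees of freedom. The edgeR test used more, so these intervals are wider than that test implies. All members are named, and from each list up to 4 called genes with the largest change; Lgmn, Myd88, Tnf, Tlr5, Tlr12 and Fscn1 were named after their values were seen where they fall outside this. The members and lists were chosen with earlier results of these data known. Shared windows were counted in GENCODE vM21 transcripts. One list of marker genes is not reported here.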

Additional observations from a re-analysis of the deposited data

How the results depend on the processing

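Among alternative values for the 10 genes over 7 comparisons, 1131 kept their direction and side of the threshold, 19 gained a call, 17 lost it and 23 changed sign, none of which was called after the change. Counts of genes moved by over 1.5 times in these cases, and by less in others. Control-CAR against Hoxb8 macrophages had 1 gene higher with library totals, against 0. CAR macrophages against BMDM had 1 higher with library totals and with log2(FPKM + 1) or log2(FPKM + 0.1), and 2 with log2(TPM + 1), against 0; leaving out 1 library gave 0 to 1, the 1 without BMDM replicate 1. Hoxb8 macrophages against BMDM had 2 higher with TPM, against 4. Among the smaller moves, CAR macrophages against BMDM had 5 lower on FPKM and TPM and 8 under DESeq2, against 6.

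Signs turned for Cd14 in CAR macrophages against BMDM (0.060 with library totals, 0.070 on log2(FPKM + 1) and log2(FPKM + 0.1), 0.15 with TPM) and for Tlr4 there (0.051) and in Hoxb8 macrophages against BMDM (-0.0019) with TPM. In control-CAR against Hoxb8 macrophages they turned for Cd14 (0.00040 on both FPKM scales, 0.014 with TPM) and Tlr1 (0.011 with TPM). Leaving out 1 library, the range crossed 0 for Tlr3 (-0.056 to 0.15) and Tlr13 (-0.031 to 0.23) in CAR macrophages against BMDM and Tlr2 (-0.0037 to 0.10) in CAR against control-CAR macrophages. It also did in control-CAR against Hoxb8 macrophages for Cd14 (-0.078 to 0.00015), Tlr1 (-0.10 to 0.035), Tlr2 (-0.0022 to 0.12), Tlr7 (-0.029 to 0.085) and Tlr8 (-0.022 to 0.13). The cause was not tested.

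Same-numbered libraries did not deviate together (r from -0.14 to 0.031 over genes). No pairing by number was seen, though deviations within groups of 3 libraries cannot exclude it. With a replicate block, CAR against control-CAR macrophages had 3 genes higher and 6 lower, and no count of the 10 genes changed. Scaling limits small changes: TPM moved the median of all genes by 0.45 for CAR against control-CAR macrophages, -0.27 for Hoxb8 macrophages against BMDM, 0.23 for CAR macrophages against BMDM and -0.91 for Hoxb8 macrophages against progenitor cells. Depth limits Tlr3 and Tlr8, and Tlr1 and Tlr9 in progenitor cells, where single counts set the ratio.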
